A study of Drosophila melanogaster with 2 samples.

Results

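Deep intronic peaks are the ChIP-seq peaks of GFP-tagged Buttonless (btn) that lie inside a protein-coding gene and in no exon of any annotated transcript. They also lie more than 5000 bp from every transcription start site (TSS) of a protein-coding gene. They were taken from the authors' optimal peak list, the set that passed their reproducibility threshold, in the dm6 build, by the position of each peak's summit. They numbered 251 of the 2153 optimal peaks. Chromatin was immunoprecipitated with an antibody against GFP from whole Drosophila melanogaster embryos of pooled sexes, 0 to 14 hours of age, from a transgenic line that stably expressed btn with GFP fused to its C-terminal end, and was sonicated to fragments of 200 to 800 bp before sequencing. There was 1 group of 2 biological replicates, numbered 2 and 3 in the labels, with no other genotype, stage or treatment. Embryos without the tagged protein were not analysed here, and binding by btn itself was therefore not checked at any peak. In whole embryos, a site bound weakly in many cells and a site bound strongly in few cells cannot be told apart.

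The comparison set was the authors' pooled candidate list, which also holds regions too weak to pass. The same position rule, applied to candidates that overlapped no optimal peak, gave 3570 deep intronic background regions of 27394. The optimal peaks are the strongest pooled candidates, so a difference in signal between deep intronic peaks and background was set by the selection and was not tested. Signal here is the authors' own peak value, used only to rank and describe regions within a list. Depth is unknown, because no list gives read counts. Tests below count regions, several of which share a host gene, so their p-values describe how regions divide and not how embryos vary.

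Buttonless is a homeodomain transcription factor known for its part in the development of the dorsal median cells, a small population of mesodermal cells at the embryonic midline. Homeodomain proteins bind short AT-rich DNA words, most often built on TAAT, and many share them. Introns of developmental genes in flies often hold enhancers, stretches of DNA that act on a start site from a distance, and long introns offer the most room for such elements.

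The sequences of 7 of the strongest deep intronic peaks are shown first, because these peaks carry high signals and let a reader see what DNA lay under the summits. Each line gives the host gene, the dm6 position on the forward strand and the 201 bp centred on the summit, read from the RefSeq Release 6 genome. Capitals mark, on either strand, the GAGA repeat GAGAGAG, the homeodomain core TAATTA, and AATATT, a word that differed between peaks and background.
CG32486 chr3L:3060700-3060900: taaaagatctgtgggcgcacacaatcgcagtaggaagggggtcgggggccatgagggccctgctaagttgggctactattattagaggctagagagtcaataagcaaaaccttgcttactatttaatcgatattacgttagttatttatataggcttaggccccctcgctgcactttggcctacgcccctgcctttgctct
Hr4 chrX:1947658-1947858: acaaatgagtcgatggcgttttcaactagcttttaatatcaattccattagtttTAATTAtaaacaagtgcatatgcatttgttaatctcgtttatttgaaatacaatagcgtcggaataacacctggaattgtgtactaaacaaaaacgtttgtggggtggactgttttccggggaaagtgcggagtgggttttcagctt
fz chr3L:14303973-14304173: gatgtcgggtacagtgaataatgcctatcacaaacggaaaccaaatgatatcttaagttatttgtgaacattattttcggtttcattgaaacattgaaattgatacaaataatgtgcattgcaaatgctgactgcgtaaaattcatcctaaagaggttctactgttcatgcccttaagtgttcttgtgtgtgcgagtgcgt
Gug chr3L:8458208-8458408: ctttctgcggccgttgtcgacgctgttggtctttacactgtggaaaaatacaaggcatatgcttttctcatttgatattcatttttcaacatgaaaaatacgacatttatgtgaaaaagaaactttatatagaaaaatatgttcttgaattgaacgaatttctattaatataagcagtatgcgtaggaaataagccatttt
JIL-1 chr3L:11084650-11084850: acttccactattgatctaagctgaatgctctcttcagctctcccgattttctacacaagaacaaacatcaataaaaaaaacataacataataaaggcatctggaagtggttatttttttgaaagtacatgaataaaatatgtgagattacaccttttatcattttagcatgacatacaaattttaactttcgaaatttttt
Hr4 chrX:1951812-1952012: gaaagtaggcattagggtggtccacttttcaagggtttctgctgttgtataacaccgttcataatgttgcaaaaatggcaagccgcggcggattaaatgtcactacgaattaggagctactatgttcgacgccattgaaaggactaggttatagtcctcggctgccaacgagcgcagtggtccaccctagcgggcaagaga
beat-Ib chr2L:15911194-15911394: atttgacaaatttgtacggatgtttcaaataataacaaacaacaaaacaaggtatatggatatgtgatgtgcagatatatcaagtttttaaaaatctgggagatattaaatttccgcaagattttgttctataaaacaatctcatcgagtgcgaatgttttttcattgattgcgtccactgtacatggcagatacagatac
TAATTA occurred in the stronger of the 2 Hr4 peaks only, and the other sequences held none of the 3 words. GC content in these windows ran from 28.9% at JIL-1 to 48.8% at the second Hr4 peak.

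The Lrch peak, in an intron of a gene for a leucine-rich-repeat protein, was the strongest deep intronic peak, with a signal of 479.8 and rank 35 of all optimal peaks. Its signal was 238 in replicate 2 and 239.9 in replicate 3, ranks 40 and 33. The next, with a signal of 351, lay in the first intron of CG32486, and the third, with 345, lay in the second intron of Hr4, a nuclear receptor gene of the ecdysone response. fz, which encodes the Frizzled receptor of Wnt and planar polarity signalling, held a peak of signal 332 in its first intron. It lay 25273 bp from the nearest TSS of a protein-coding gene. Gug, which encodes the corepressor Atrophin, held a peak of 330.3. JIL-1, a histone H3 kinase gene, held a peak of 319 in intron 4. Signals in replicate 2 and replicate 3, each on the scale of its own list, were 194 and 149 at CG32486, 173 and 172 at the stronger Hr4 peak, 169 and 163 at fz, 184 and 142 at Gug, and 155 and 160.4 at JIL-1. They were close at Hr4, fz and JIL-1, and higher in replicate 2 at CG32486 and Gug. The ranks of the 8 strongest peaks ran from 40 to 156 in replicate 2 and from 33 to 169 in replicate 3. These peaks were chosen by their pooled signal from a list filtered for reproducibility, so high ranks in both libraries follow from the choice.

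The other peaks among the 20 strongest lay in genes of several kinds. Hr4 held 2 more, of signal 263 and 222, 9972 and 21975 bp from its nearest TSS. Raf, which encodes the kinase that links receptor tyrosine kinases to MAP kinase, also held 2, of 226 and 216. beat-Ib, of a family of immunoglobulin-type proteins that act in motor axon guidance, held a peak of 257, and Mi-2, a nucleosome-remodelling ATPase gene, held a peak of 255. A peak of 246 lay in rdx, whose product is an adaptor of a ubiquitin ligase for the Hedgehog pathway factor Ci. vn, which encodes the neuregulin-like ligand Vein of the EGF receptor, held a peak of 229, and S (Star), needed for the processing of EGF receptor ligands, held a peak of 211. dlp, a glypican gene, held a peak of 212, and wdb, a regulatory subunit gene of protein phosphatase 2A, held a peak of 226. CG6959, babos and Eip75B, the last a nuclear receptor gene of the ecdysone response, held peaks of 246, 208 and 202. Signals over all 251 peaks ran from 70.5 to 480 with a median of 93.8, so these 20 form a tail of high values.

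Distance to the nearest TSS was 5017 to 49790 bp, with a median of 9090 bp, among deep intronic peaks, and had a median of 10328 bp in the background. The farthest peak lay in the sixth intron of hth, a homeobox gene whose product acts with Hox proteins. No deep intronic peak lay over 50 kb from a TSS, which allows a share of up to 1.46% (exact 95% interval), and 74 background regions (2.07%) did. The nearest TSS was of the host gene for 176 peaks (70.1%) and for 2294 background regions (64.3%). Around the limit of the rule, the nearest peaks inside were in Mnt at 5017 bp, Lrch at 5049 bp (a second, weaker peak of signal 146) and Psc at 5073 bp, and the nearest outside were in Ac13E at 4980 bp, cno at 4982 bp and ush at 4995 bp. Signals were 76.3, 146 and 157 inside the limit and 87.6, 136 and 222 outside it.

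Deep intronic sequence, as the rule defines it, made up 20.4% of the 6 chromosome arms, which come to 133880608 bp, while deep intronic peaks were 11.7% of the optimal peaks and deep intronic background regions 13.03% of the candidates that overlapped none. There were 9.18 deep intronic peaks per Mb of deep intronic sequence, against 16.1 optimal peaks per Mb of all sequence.

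All 251 peaks had a candidate in both replicates, as did 1901 of the other 1902 optimal peaks. The optimal list had passed a reproducibility threshold, so a candidate in both replicates was made likely by the choice of list, though not certain for every peak. In replicate 2, 204 of the 251 peaks (81.3%) were among the 2153 strongest candidates, in replicate 3 190 were (75.7%), and in both at once 148 were (59.0%). Among the other 1902 optimal peaks 71.8% were among the strongest in both. The median rank of deep intronic peaks was 1295 in replicate 2 and 1279 in replicate 3, while that of the other optimal peaks was 1016 and 1028, and the difference was not tested. Signals in the replicates had a Spearman rank correlation of 0.520 across deep intronic peaks and 0.666 across the other optimal peaks, a description over regions from the same 2 libraries whose signal ranges differ. By the gap in rank the replicates differed most at a peak in CG43373, which ranked 998 in replicate 2 and 7179 in replicate 3. The widest gap in the other direction was at a peak in CG31145, which ranked 6151 in replicate 2 and 740 in replicate 3. Both were chosen for naming after their values were seen.

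**Figure D1:**
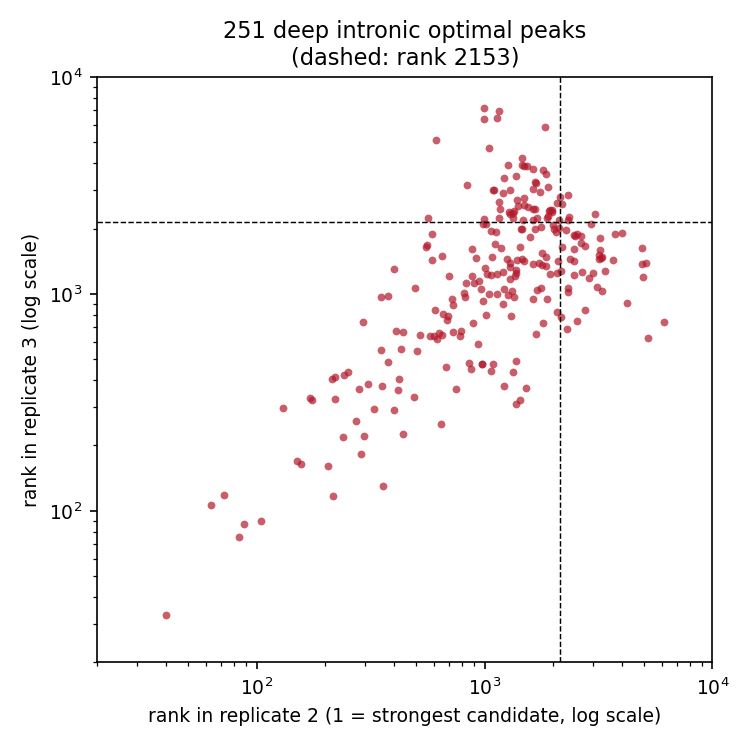
Rank of each of the 251 deep intronic peaks among the candidates of replicate 2 (x axis) and replicate 3 (y axis), both on log scales, with 1 as the strongest. Dashed lines mark rank 2153; 148 points lie below both lines, and the strongest, Lrch, sits at 40 and 33.

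Deep intronic peaks lay in the first intron more often than background regions did. Introns were numbered on the longest transcript of the host gene that had the summit in an intron. Peaks of the same gene could thus be numbered on different transcripts. The first intron so defined held 96 of 251 peaks (38.2%, exact 95% interval 32.2 to 44.6%) and 1001 of 3570 background regions (28.0%, 26.6 to 29.5%), which gives an odds ratio of 1.59 with bounds of 1.21 and 2.09 (two-sided test, Fisher's exact p = 0.000861). The second intron held 85 peaks (33.9%) and 1183 background regions (33.1%), the third 32 (12.7%) and 540 (15.1%), and later introns 38 (15.1%) and 846 (23.7%). The introns that held the peaks had a median length of 23710 bp, and those that held background regions 20232 bp. With 126 peaks at or above the median signal of the class the odds ratio was 2.12. For summits over 10 kb from a TSS the call was lost, with 33 of 107 peaks and 415 of 1855 background regions (odds ratio 1.55, Fisher's exact p = 0.0572). With the first intron of any transcript counted, the shares were 55.0% of peaks (138) and 42.6% of background regions (1522). That odds ratio was 1.64 (Fisher's exact p = 0.000165).

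Optimal peaks nearer to a TSS sat in the first intron still more often. Of the 251 deep intronic peaks 38.2% were in a first intron, against 55.0% of the 373 intronic optimal peaks 1 to 5 kb from a TSS, an odds ratio of 0.508 (0.361 to 0.712, Fisher's exact p = 4.4e-05). The position rule bears on this comparison, since a first intron begins close to a start site.

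**Figure D2:**
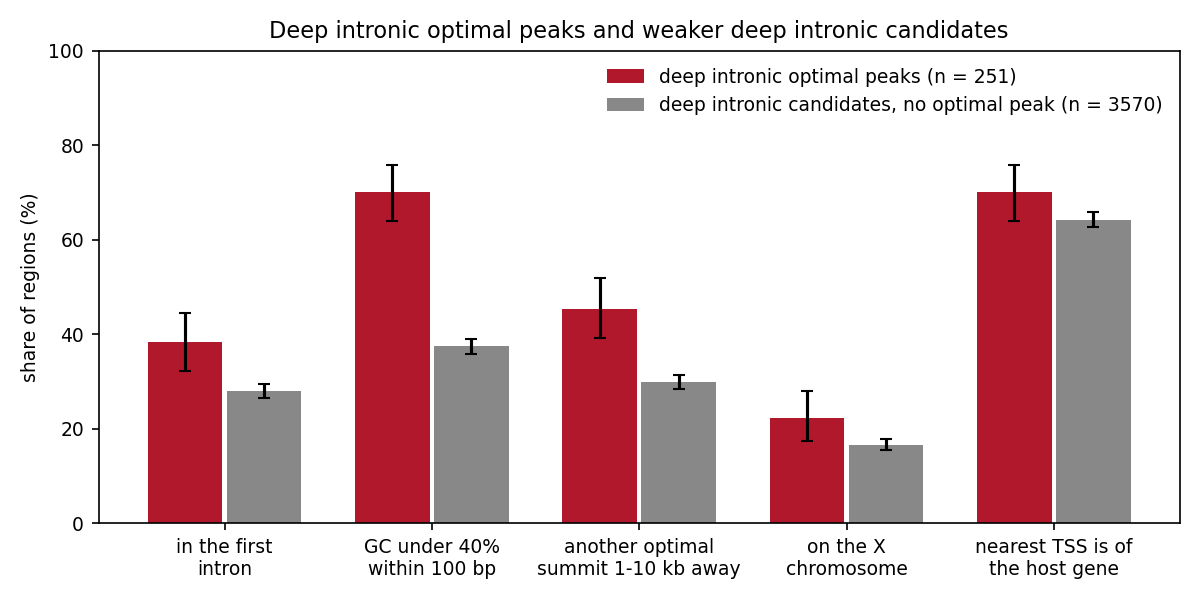
Share of regions (%) with each property, for the 251 deep intronic peaks (red) and the 3570 deep intronic background regions (grey), with exact 95% intervals as bars. The first 3 properties differed by Fisher's exact test; the X chromosome did not pass after adjustment over 6 chromosomes, and the nearest TSS was not tested.

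The summits were richer in A and T than the background. GC content within 100 bp of the summit averaged 37.6% ± 5.67 over deep intronic peaks and 42.8% ± 7.50 over background regions (SD over regions, n = 251 and 3570). It was under 40% in 176 peaks (70.1%) and in 1336 background regions (37.4%), an odds ratio of 3.92 (2.95 to 5.26, Fisher's exact p = 7.2e-24). At 50% or more stood 6 peaks (2.39%) and 669 background regions (18.7%). The odds ratio was 6.07 for summits over 10 kb from a TSS.

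The low GC content was a narrow feature. In the 50 bp on either side of the summit, mean GC was 35.1% in deep intronic peaks and 42.8% and 42.7% in the background. At 200 to 250 bp upstream on the forward strand it was 45.8% in peaks and 43.3% in background regions, and at 950 to 1000 bp upstream 40.5% and 41.6%. Peaks thus had a dip at the summit between shoulders that were higher than the background, and with a window of 200 bp on each side the call was lost (97 of 251 peaks and 1165 of 3570 background regions under 40%, odds ratio 1.30, Fisher's exact p = 0.0521).

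**Figure D3:**
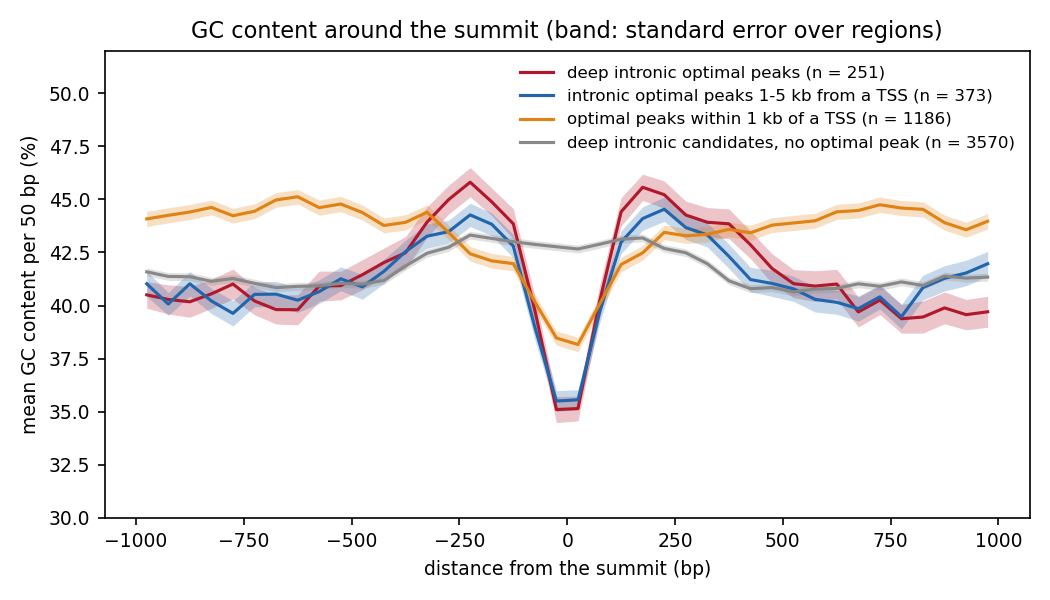
Mean GC content (%) in bins of 50 bp, by distance from the summit in bp, with the standard error over regions as a band; the y axis starts at 30%. Deep intronic peaks (red) and intronic optimal peaks 1 to 5 kb from a TSS (blue) fall to about the same level at the summit, 35.1% and 35.5%, while the deep intronic background (grey) stays near 42.7%.

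The share of low GC did not differ past the threshold from that of intronic optimal peaks closer to a TSS. It was 70.1% in deep intronic peaks and 70.5% in the 373 intronic optimal peaks 1 to 5 kb from a TSS, an odds ratio of 0.982 with a 95% interval from 0.682 to 1.42 (Fisher's exact p = 0.929). Optimal peaks within 1 kb of a TSS had a lower share, with 176 of 251 deep intronic peaks and 706 of 1186 such peaks (59.5%) under 40% (odds ratio 1.60 [1.18 to 2.17], Fisher's exact p = 0.00168).

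Deep intronic peaks more often had another optimal peak nearby. Another optimal summit lay 1 to 10 kb away for 114 of 251 peaks (45.4%) and for 1065 of 3570 background regions (29.8%), an odds ratio of 1.96 (1.50 to 2.55, Fisher's exact p = 6.09e-07). The neighbours came from the optimal list, which holds the deep intronic peaks themselves, so peaks near each other each counted the other. A background region could not serve as a neighbour. The p-value takes such peaks as independent, which they are not. The odds ratio was 1.45 when each host gene gave 1 region (Fisher's exact p = 0.0380). Of neighbouring deep intronic peaks, 28 pairs stood under 5 kb apart and 3 pairs under 1 kb.

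By chromosome, the X held 56 deep intronic peaks (22.3%) and 593 background regions (16.6%), an odds ratio of 1.44 (1.04 to 1.98), which did not pass adjustment over the 6 chromosomes (Fisher's exact p = 0.0236, adjusted p = 0.142). None of the 6 passed, and the X alone had an unadjusted p under 0.05. The X did pass for summits over 10 kb from a TSS (odds ratio 1.90, Fisher's exact adjusted p = 0.0402), with only gene starts taken as TSSs (1.43, adjusted p = 0.0174), and with the strongest candidates of replicate 2 alone (1.70, adjusted p = 0.00673). Chromosome 4 held 0 peaks, which allows a share of up to 1.46%, and 14 background regions (0.392%).

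A fixed set of 22 binding words was looked for on either strand in the 201 bp around each summit, and peaks were compared with background inside strata of equal GC content. The homeodomain cores showed no difference past the threshold. TAATTA occurred in 33 deep intronic peaks (13.1%) and 447 background regions (12.5%), a Mantel-Haenszel odds ratio of 0.783 (0.532 to 1.15, Mantel-Haenszel chi-square adjusted p = 0.536), and TAATTG in 44 (17.5%) and 640 (17.9%), an odds ratio of 0.808 (0.574 to 1.14). Without the GC strata the TAATTA odds ratio turned to 1.06. TGATNNAT, a word that Exd and Hox proteins bind together, occurred in 35 peaks (13.9%) and 490 background regions (13.7%). The words ATTAAT and TTATAA, made of the same letters as TAATTA, occurred in 28 and 26 peaks (11.2% and 10.4%) and in 379 and 315 background regions (10.6% and 8.82%).

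GAGAGAG, the repeat that GAGA factor binds, was the only fixed word past the threshold. It occurred in 15 deep intronic peaks (5.98%) and 129 background regions (3.61%), an odds ratio of 2.65 within GC strata (1.48 to 4.72, Mantel-Haenszel chi-square adjusted p = 0.0125). The call was lost without GC strata (1.70, Fisher's exact adjusted p = 0.304), without replicate 3 (1.65, Mantel-Haenszel chi-square adjusted p = 0.389) and with 1 region per host gene (2.91, adjusted p = 0.0856). It was lost too against the background of higher signal (2.45, Mantel-Haenszel chi-square adjusted p = 0.0627), for peaks at or above the median signal (2.26, 0.701) and for summits over 10 kb from a TSS (1.49, 0.955). Within 50 bp of the summit the repeat occurred in 11 peaks and 55 background regions, an odds ratio of 7.45 (3.48 to 15.9, Mantel-Haenszel chi-square adjusted p = 2.90e-08). The bases of the repeat itself count towards the GC content that defines its stratum. As raw shares, its centre lay within 50 bp of the summit in 4.38% of peaks and 1.62% of background regions. At 50 to 100 bp the shares were 2.39% and 2.41%. Farther out they were again higher in peaks, with 7.17% and 4.03% at 200 to 300 bp and 7.57% and 3.05% at 400 to 500 bp. The excess over background was thus not confined to the summit. The repeat occurred in 3.22% of intronic optimal peaks 1 to 5 kb from a TSS and 6.49% of optimal peaks within 1 kb. Neither comparison with deep intronic peaks passed (odds ratios 2.07 and 1.10, Mantel-Haenszel chi-square adjusted p = 0.459 and 0.921). In these classes the raw shares within 50 bp, 0.804% and 2.53%, were lower than in deep intronic peaks. At 200 to 300 bp they were higher, with 8.58% and 8.94%, and at 400 to 500 bp lower, with 6.70% and 5.99%. The 15 deep intronic peaks with the repeat lay in 15 host genes and had signals from 71.9 to 128, so none was among the 20 strongest. The 4 strongest of them, chosen for printing after their values were seen, show runs of different length, again 201 bp on the forward strand with capitals for GAGAGAG and AATATT on either strand.
ush chr2L:510528-510728: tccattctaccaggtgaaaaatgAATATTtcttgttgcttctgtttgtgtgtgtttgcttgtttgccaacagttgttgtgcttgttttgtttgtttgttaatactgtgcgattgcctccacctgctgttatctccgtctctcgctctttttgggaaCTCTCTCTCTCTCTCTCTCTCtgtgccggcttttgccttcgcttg
MESR3 chr2L:18627044-18627244: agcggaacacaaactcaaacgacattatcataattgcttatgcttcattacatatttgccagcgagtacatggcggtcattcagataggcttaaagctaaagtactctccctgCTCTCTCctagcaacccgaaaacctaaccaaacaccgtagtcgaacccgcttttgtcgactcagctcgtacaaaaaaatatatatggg
DIP-alpha chrX:3546187-3546387: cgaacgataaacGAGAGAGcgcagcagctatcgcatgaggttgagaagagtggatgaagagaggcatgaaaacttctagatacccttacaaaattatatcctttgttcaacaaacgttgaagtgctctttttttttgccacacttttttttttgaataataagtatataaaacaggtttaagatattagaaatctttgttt
Raf chrX:2302200-2302400: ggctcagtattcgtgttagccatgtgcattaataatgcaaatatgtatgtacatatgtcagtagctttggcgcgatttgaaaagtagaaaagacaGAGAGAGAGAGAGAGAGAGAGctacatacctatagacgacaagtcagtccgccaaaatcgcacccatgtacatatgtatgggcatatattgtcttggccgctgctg
The ush and Raf peaks held long runs of the repeat, with 8 overlapping copies of the 7-base word each, while the MESR3 and DIP-alpha peaks held a single copy.

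The remaining 16 fixed words did not pass either. AGATAA and TGATAA, which GATA factors bind, occurred in 37 and 41 peaks (14.7% and 16.3%) and in 411 and 441 background regions (11.5% and 12.4%), with odds ratios of 0.978 and 1.08 within GC strata. Of the E-box words, CACGTG occurred in 4 peaks and 94 background regions, CAGCTG in 14 and 311, and CATCTG in 26 and 315. TGTTTA, a forkhead word, occurred in 71 peaks (28.3%) and 691 background regions (19.4%), an odds ratio of 1.26 (0.944 to 1.69). ACAATG, a Sox word, occurred in 22 peaks (8.76%) and 481 background regions (13.5%), an odds ratio of 0.615 (0.391 to 0.968) that did not pass adjustment (Mantel-Haenszel chi-square adjusted p = 0.371). GCCAT, of the Polycomb group protein Pho, occurred in 68 peaks (27.1%) and 1393 background regions (39.0%), an odds ratio of 0.749 (0.558 to 1.01). The repeat CACACAC occurred in 22 peaks and 366 background regions, the Su(H) word TGGGAA in 34 and 463, the nuclear receptor word TGACCT in 11 and 160, and the ETS word CCGGAA in 7 and 196. The Zelda word CAGGTAG occurred in 3 peaks and 37 background regions, the AP-1 word TGACTCA in 5 and 64, the NK-2 word TCAAGTG in 11 and 193, and the DREF word TATCGATA in 0 and 10.

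Among all words of 6 bases, counted on both strands, 2 of 2018 passed against background (0.0991%), and 169 had an unadjusted p under 0.05. AATATT was more frequent in deep intronic peaks, in 88 (35.1%) and in 573 background regions (16.1%), an odds ratio of 1.86 (1.40 to 2.48, Mantel-Haenszel chi-square adjusted p = 0.0177). ATAAAT was less frequent, in 67 peaks (26.7%) and 1140 background regions (31.9%), an odds ratio of 0.522 (0.387 to 0.705, Mantel-Haenszel chi-square adjusted p = 0.0177). As raw shares, the centre of AATATT lay within 50 bp of the summit in 19.9% of peaks and 8.94% of background regions, and at 200 to 300 bp in 9.56% of peaks and 15.8% of background regions. GC content differed between the sets at the same place, and within GC strata the window of 50 bp gave it an odds ratio of 1.30 (0.914 to 1.85). Both calls were lost with 1 region per host gene, where fewer regions were tested and the odds ratios were 1.98 for AATATT and 0.561 for ATAAAT (Mantel-Haenszel chi-square adjusted p = 0.266 and 0.629). Both were lost in the window of 50 bp, where the odds ratio of ATAAAT was 0.660 (Mantel-Haenszel chi-square adjusted p = 0.892 for AATATT and 0.793 for ATAAAT). The call of AATATT was also lost without replicate 3 (odds ratio 1.56, Mantel-Haenszel chi-square adjusted p = 0.211) and without replicate 2 (1.78, 0.0836), and ATAAAT without replicate 2 (0.604, 0.265). Neither word passed for summits over 10 kb from a TSS, with odds ratios of 1.98 for AATATT and 0.498 for ATAAAT, or for peaks at or above the median signal, with 1.58 and 0.616. ATAAAT did not pass with gene starts only, with the stronger background or without GC strata either (Mantel-Haenszel chi-square adjusted p = 0.0816 and 0.0610, and Fisher's exact adjusted p = 0.333). The next words by p, none past the threshold, were GAATAC in 36 peaks and 217 background regions, GAGAAA in 73 and 619, AATACA in 70 and 506, AATCGA in 15 and 416, CATGTA in 33 and 239, and GTTTGA in 44 and 346. Of these, AATCGA alone was less frequent in peaks.

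The words were also compared with those of optimal peaks nearer to a gene start. No fixed word and no word of 6 bases differed past the threshold between deep intronic peaks and intronic optimal peaks 1 to 5 kb from a TSS; 95 of 1982 words of 6 bases had an unadjusted p under 0.05, and the lowest unadjusted Mantel-Haenszel chi-square p of a fixed word was 0.0553, for CATCTG. Against the 1186 optimal peaks within 1 kb of a TSS, TATCGATA, the element bound by the factor DREF at many housekeeping promoters, occurred in 0 of 251 deep intronic peaks and 59 promoter-near peaks (4.97%), with a Mantel-Haenszel chi-square adjusted p of 0.00553. With fewer deep intronic peaks, those over 10 kb from a TSS or at or above the median signal, no fixed word passed in this comparison. Of 2026 words of 6 bases 12 passed (0.592%), 3 of them less frequent in deep intronic peaks. Of these 3, ATCGAT (5 deep intronic and 135 promoter-near peaks) and TATCGA (14 and 192) lie inside TATCGATA, and CGATAG (8 and 141) shares all but its last base with the end of it. The 9 more frequent words, with their odds ratios, were CATGTA (2.59), GAGAAA (1.97), ATCAAT (2.02), TGCACA (1.99), AATATT (1.81), AATGGG (2.14), CCCCAC (2.54), CCCCCC (2.96) and GCATAC (2.19). These 12 words were named because they passed, after their values were seen.

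The 251 peaks lay in 175 of the 902 host genes that held any deep intronic candidate or peak (19.4%). A single deep intronic peak was held by 127 genes, and 48 genes with 2 or more held 124 of the peaks. Genes with more candidates more often had a peak: 17 of 288 genes with 1 candidate or peak in all (5.90%), 56 of 193 with 4 to 7 (29.0%) and 60 of 112 with 8 to 15 (53.6%), though 12 of 29 with 16 or more (41.4%). The number of regions includes the peaks themselves, and a gene with more regions has more chances to hold a peak. Some rise is therefore set by the counting, and how much was not tested. btn itself, 477 bp long in the annotation, had no deep intronic sequence. Of the peaks, 10 lay inside more than 1 protein-coding gene.

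The 6 genes with most deep intronic peaks differed in length and in the strength of their peaks. kirre, an adhesion gene of muscle founder cells and the longest of them at 394149 bp, held 7 weak peaks with signals from 77.5 to 92.7, and 33 background regions. Of these 7 peaks 6 lay in a single intron of 117679 bp. Raf, of 48405 bp, held 5 peaks and 2 background regions in 11790 bp of deep intronic sequence. Its peaks had signals of 226, 216, 105, 78.9 and 75.1. Eip75B held 5 peaks of signal 90.9 to 202 and 7 background regions. Hr4 held 4 peaks with signals of 345, 263, 222 and 94.9, and 9 background regions. rdx and sbb (scribbler, a transcriptional regulator gene) held 4 each, with signals of up to 246 in rdx and up to 190.2 in sbb. Per 100 kb of deep intronic sequence, Raf had 42.4 peaks, Eip75B 12.8, Hr4 12.5, rdx 11.7, sbb 11.2 and kirre 3.32.

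**Figure D4:**
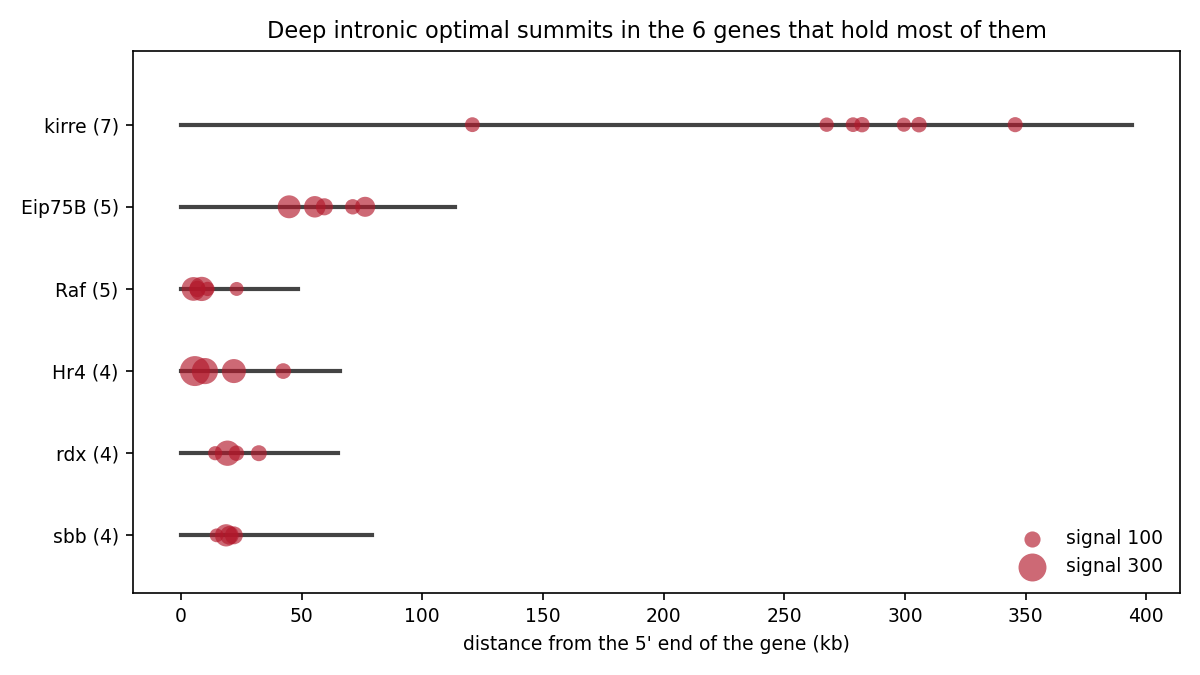
Position of each deep intronic summit along its host gene, in kb from the 5' end of the gene, for the 6 genes that hold most of them (count in brackets); the line is the gene and the area of a point is proportional to the peak signal. The 7 kirre peaks lie from 120793 to 345681 bp along the gene, while the 5 Raf peaks stand nearer to its start.

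Host genes were grouped by lists of developmental pathways, which are described by counts only and overlap in places. Against 19.4% of all host genes, 8 of 10 host genes of the BMP and activin pathway had a deep intronic peak. They had a median of 4.5 candidates or peaks per gene, where all host genes had 2, and a higher number went with more peaks in the whole set, as given above. Of all host genes with 4 to 7 candidates or peaks, 29.0% had a deep intronic peak. The share of the BMP and activin list was not tested against that. The ligand gene dpp held a peak of signal 183, 5231 bp from a TSS. Its receptor gene tkv held a peak of 121. cv-2, which encodes a secreted BMP-binding protein, held 2 peaks, the stronger of signal 195, and dlp held 3 of up to 212. Of 11 EGF receptor pathway host genes 5 had a peak, with a median of 6 candidates per gene: the ligand gene vn, S and Raf as above, and pnt, which encodes the ETS factor downstream of the pathway, with 2 peaks of up to 148. In the Notch pathway 1 of 11 host genes did, the receptor gene N with a peak of 198 that ranked 220 in replicate 2 and 414 in replicate 3.

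For the Wnt and Hedgehog pathways, with a median of 5 candidates or peaks per host gene, 5 of 12 host genes had a deep intronic peak. Beside fz these included nkd, an inhibitor of Wnt signalling, with 191, and the ligand genes Wnt6 with 80.2 and hh with 75.4. Of nuclear receptor and ecdysone genes 4 of 12 did: Hr4, Eip75B, the ecdysone receptor gene EcR with 2 peaks of up to 133, and Hr3 with 114. These 4 genes held 12 peaks, 3 per gene at the median, where host genes with a peak had 1 at the median. Host genes of this list had a median of 6 candidates or peaks, where all host genes had 2, and also had more deep intronic sequence at the median (20718.5 bp against 13832.5 bp).

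Homeobox genes, the family of btn, stood near the share of all host genes, with 7 of 34 (20.6%). Their strongest peaks were 147 in Lim1, 142 in Antp, which held 3, 139 in cad and 115 in ct. Zinc finger and BTB factor genes had a peak in 7 of 24, led by sbb, jumu (134; its product is a forkhead factor, although the list holds it), ush (128) and shn (113), and chromatin regulator genes in 6 of 12, led by Gug, sbb, Psc (157) and tara (117). JIL-1 and Mi-2, also chromatin genes, were not in that list. The zinc finger and chromatin lists had a median of 4.5 and 4 candidates or peaks per host gene, where all host genes had 2. Their shares were not tested against the 19.4% over all host genes.

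Axon guidance and cell adhesion genes, with a median of 5 candidates or peaks per host gene, had a peak in 15 of 49 host genes. The strongest were in Fas3 (152), fra (139, a netrin receptor gene), mew (134, an integrin alpha subunit gene) and caps (129). For muscle genes the count was 3 of 17, kirre, how (86.3) and Mef2 (74.3), the last a gene for a muscle differentiation factor. For the list of glia and midline genes it was 3 of 8, vn, S and pnt, all of which are in the EGF receptor list too. Host genes of the glia and midline list had a median of 6.5 candidates or peaks. The lowest shares beside Notch were 2 of 16 RNA-binding protein genes, cpo (87.2) and how, with a median of 8.5 candidates per gene, and 4 of 29 channel and synapse genes, dnc (79.2), Shal (77.5), Ca-beta (73.9) and Ca-alpha1T (71.5), with a median of 2.

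**Figure D5:**
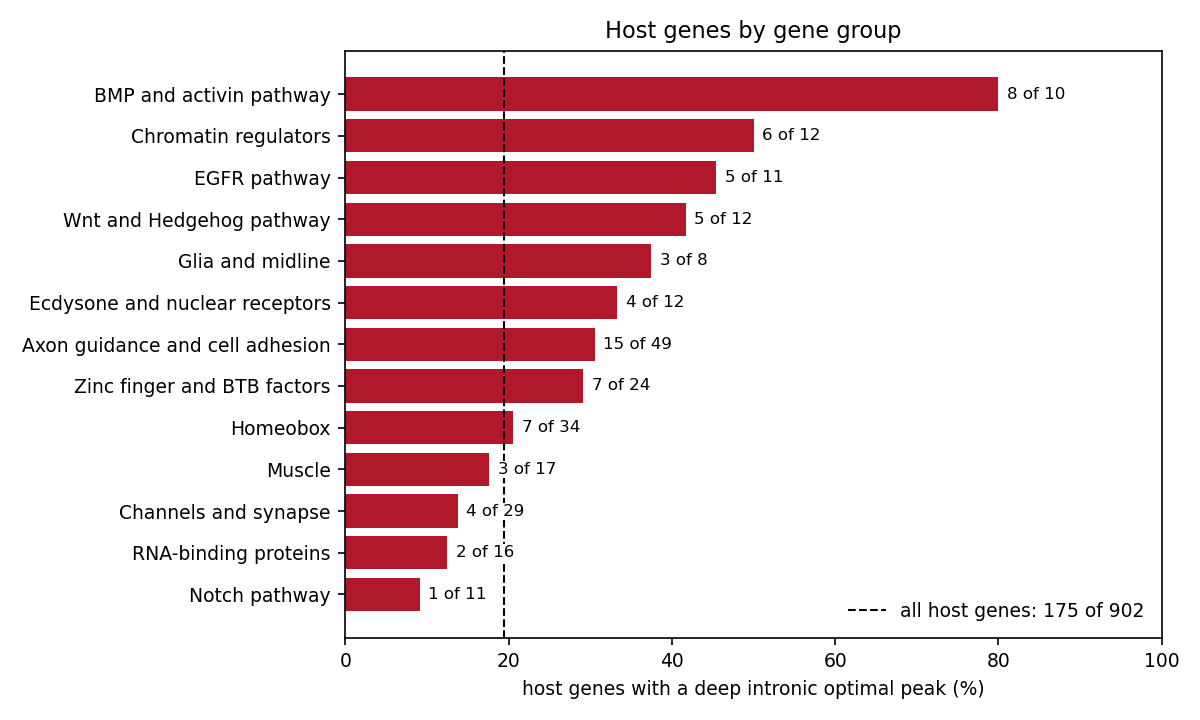
Percentage of host genes with a deep intronic peak in each gene list, with the counts beside each bar; the dashed line is the share over all 902 host genes, 19.4%. BMP and activin genes stand highest with 8 of 10, and Notch genes lowest with 1 of 11.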

How the data were processed

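ChIP-seq peak lists of 2 biological replicates were used as deposited: candidate regions of each replicate and of the pool, and the optimal list. Per the deposited README files, candidates were made as input for an irreproducible discovery rate analysis against a control. The signal column is the authors' deposited peak value. Not given in the sources used here: aligner, peak caller, IDR threshold, read depth. The dm3 lists were not used. In 1 pooled candidate the summit lay outside its region and was used as given.

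Summits (dm6) were assigned with Ensembl release 115 (BDGP 6.54), and candidates overlapping an optimal peak by 1 bp or more were left out of the background. Intron number is that in the longest transcript of the host with the summit in an intron. Tests were two-sided: Fisher's exact test, and for words a Mantel-Haenszel chi-square test in GC strata 2 points wide, over words with an expected count of at least 5 in the case of words of 6 bases. Benjamini-Hochberg adjustment ran over 6 chromosomes, 22 fixed words or every 6-base word, and 0.05 was the threshold. Code was Python 3.11.15 with scipy 1.17.1, numpy 2.4.6 and pandas 2.3.3, checked on artificial data. The 13 gene lists hold 556 genes from textbook knowledge; 14 names matched no gene. A further list, and the sequence at the strongest peak, are not reported here.

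By rule, genes named are btn, the hosts of the 20 strongest peaks, the 6 with most peaks and up to 4 per list; words named are the fixed ones and the 8 of 6 bases with the lowest p against background. Named outside it, after their values were seen, were the words that passed against peaks within 1 kb of a TSS, the genes at the distance limit or the farthest distance, those with the widest rank gaps and those of the printed GAGA repeats. Members, lists and words were chosen with earlier results of these data known. Alternatives were other TSS distances and definitions, other windows, strata, backgrounds and overlaps, upper signals, 1 region per gene, and each replicate alone.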

Additional observations from a re-analysis of the deposited data

How the results depend on the processing

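Of the 3 shares that differed from background, the neighbour share kept its call under all 11 alternatives. Each of these still took neighbours from the list that gave the peaks and none from the background. The kept calls are therefore no independent support. The first intron share lost its call for summits over 10 kb from a TSS (odds ratio 1.55), 1 of 11 alternatives. The low GC share lost its call with 200 bp on each side (1.30), also 1 of 11. The cause of either loss was not tested. The X chromosome passed with summits over 10 kb away, with gene starts only and without replicate 3 (1 call in each, against 0), while 0 passed without replicate 2. Leaving out a replicate gave 0 to 1 calls of fixed words and 1 to 14 of words of 6 bases.

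Fixed words called numbered 0 for summits over 10 kb away, for peaks at or above the median signal, for the background with the higher signal and for 1 region per host gene, 2 with gene starts only, 3 with 200 bp on each side and 2 without GC strata. Words of 6 bases numbered 0 over 10 kb, at or above the median signal, with 1 region per host gene and with 50 bp on each side, 1 for the stronger background, 26 with gene starts only, 16 with 200 bp on each side and 162 without GC strata. TAATTA turned to an odds ratio of 1.06 without strata. Fewer regions entered the tests over 10 kb, above the median and per host gene. Against other optimal peaks, where 1 fixed word was called, alternatives chosen after seeing the data gave 0 calls over 10 kb and at or above the median signal, 3 with 50 bp, 2 with 200 bp, 2 without strata, and 3 to 4 when a replicate was left out. Depth is unknown, so no detection limit per region can be given.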
